A study of Mus musculus with 8 samples.

Results

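The genes described here encode 10 heat shock chaperones of the cytosol and the mitochondria. They are the HSP70 genes Hspa8 and Hspa9, the HSP110 genes Hspa4 and Hsph1, and the HSP90 genes Hsp90ab1 and Hsp90aa1. The others are the co-chaperone genes Dnaja1 and Stip1 and the mitochondrial chaperonin genes Hspd1 and Hspe1. Members were matched by gene symbol, and all 10 of the 13120 genes with reads carried reads in every library. Together they held 21799 of the 1926118 reads used, between 1.04% and 1.17% of the reads of a library. Each read was a single mRNA sequenced directly on a nanopore, which gives both the identity of the transcript and the length of its poly(A) tail.

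The cells were undifferentiated wild-type P19, a mouse embryonal carcinoma line, all kept in the same serum-containing medium. They received MHY1485 (MHY), a compound used to activate the kinase mTOR, at 10 µM, or its solvent DMSO alone, for 24 h or 48 h. This gave 4 groups of 2 libraries, which the study's methods describe as biological replicates. The study asked how mTOR activation affects poly(A) tails, and the comparisons below give MHY against DMSO at each time for the chaperone mRNAs. Libraries are named by the numbers of the deposited table, 21 and 23 at 24 h and 24 and 25 at 48 h, under each treatment.

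Chaperones bind unfolded or partly folded proteins and keep them from aggregating until they reach their native state. HSP70 proteins work in an ATP-driven cycle. J-domain proteins such as DNAJA1 start that cycle by delivering clients and stimulating ATP hydrolysis, and HSP110 proteins such as HSPA4 and HSPH1 reset it by exchanging nucleotide. STIP1, also called HOP, bridges HSP70 and HSP90 so that clients can pass from the first to the second. In the mitochondrial matrix HSPA9 takes in imported proteins, and HSPD1 (HSP60) forms a folding chamber that HSPE1 (HSP10) closes as a lid. Stress raises many of these genes through the transcription factor HSF1, which binds heat shock elements, while Hspa8 and Hsp90ab1 are the forms that most unstressed cells express at high levels.

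Libraries held 178369 to 316546 reads. The median tail over all reads of a library lay between 92.4 and 102.5 nt, with MHY library 24 at 48 h the lowest, and that library also had the largest share of tails under 30 nt (4.46% against 2.17% to 3.38% in the others). All libraries of a time point were sequenced together in shared runs, 3 at 24 h and 2 at 48 h, and no run held both times, so time and sequencing run cannot be told apart. The median translocation rate was 120.5 nt per second at 24 h and 115.9 nt per second at 48 h in each library. Of 10 embryonal carcinoma markers all had reads, led by Pou5f1 with 5098. Their sum was 3447 to 3926 reads per 1000000 reads of a library, with no size factor. On the same scale the neuronal list summed to 215 to 404, nearly all from Stmn2 and Tubb3, with Dcx, Rbfox3 and Syt1 at 0 reads. The fibroblast list summed to at most 22.2 on that scale.

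Hspd1 and Hspe1 lie head to head on chromosome 1 (mm10), and the sequence between their starts is shown because these 2 members share it. Nearly all Hspd1 reads (1294 of 1301) were assigned to a transcript at positions 55077835 to 55088024 on the minus strand, and all 2616 Hspe1 reads to a transcript at 55088132 to 55091307 on the plus strand. The 107 bases between them are printed on the plus strand, from the RefSeq promoter table (GRCm38.p6), with the heat shock element in capitals. A minor Hspd1 transcript with 7 reads has its annotated start beyond this stretch.
Hspd1-Hspe1 intergenic, chr1:55088025-55088131: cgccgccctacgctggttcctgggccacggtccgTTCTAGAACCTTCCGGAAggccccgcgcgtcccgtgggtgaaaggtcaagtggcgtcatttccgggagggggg

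The capitals cover 18 bases (positions 55088059 to 55088076) in which 2 forms of the element overlap, TTC, GAA and TTC with 2 bases between units and GAA, TTC and GAA spaced likewise. Either form, on both strands, occurred in 198 of 32851 promoter windows of the table (0.603%), each window running from 250 bases before to 50 after a gene start. The table matched 6 of the 10 members. The element was found for Hspd1, Hspe1 and Hsph1, and in Hsph1 it lay 36 bases after one annotated start and 15 after the other (chr5:149636288-149636317, minus strand):
Hsph1: gagtaaaatgctgcagaTTCTGGAAAGTTC

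The 6 members had 10 windows, some genes with several starts, and 4 of the windows held the element. CCAAT or ATTGG occurred in 6 of the 10 windows, in Hspd1, Dnaja1, Stip1 and Hsph1, against 37.4% of all windows. The Hspd1 match lay in the window of the minor start, and that of its main transcript had none. These matches describe letters in a window and say nothing about binding in these cells.

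The members spanned a wide range of read levels. Direct RNA sequencing yields 1 read per molecule whatever its length, so levels are compared here with no division by length. They are given as scaled RPM (reads per 1000000 reads, scaled by a size factor per library). Averaged over the 8 libraries, Hspa8 stood at 3675 RPM (2945 to 4001) and Hsp90ab1 at 3203 (2356 to 3989.6), and their ranges overlapped. Both ranked above 98% of the 4116 genes tested for read level. Hspe1 followed at 1468 (1364 to 1648) and Hsp90aa1 at 1369.9 (1218 to 1471), again with overlapping ranges and each below every Hsp90ab1 value. Hspd1 averaged 725 (532 to 900), below both of them in every library. Dnaja1 (443), Hspa4 (417), Stip1 (406) and Hspa9 (375) formed a group whose ranges overlapped one another, and Hsph1 was lowest at 94.3 (63.0 to 137). Hsph1 had 10 to 40 reads in a library, which limits every value given for it.

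Assignment to transcripts was uneven among the members. Hsp90ab1, Hspa4, Hspa9, Hspd1, Hspe1 and Stip1 had a mapping quality of at least 10 in more than 99% of their reads. The share was 69.0% for Hspa8, 68.0% for Dnaja1, 59.5% for Hsph1 and 29.1% for Hsp90aa1. In these 4 genes a second annotated transcript carried 12.8% to 29.2% of the reads, and reads were therefore summed per gene.

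Under MHY the cytosolic HSP90 gene Hsp90ab1 fell at 48 h, and the mitochondrial chaperonin gene Hspd1 fell when both times were averaged. No other member passed the test in MHY against DMSO at either time or over both. At 24 h no member was called (limma voom, adjusted p of at least 0.519 for each), against 0.0729% of all genes tested, and 1 member, Hspd1, had an unadjusted p under 0.05, as did 4.3% of all genes. At 48 h 1 of 10 members was called, lower, where 1.58% of all genes tested were called (1.17% lower). Over both times 2 of 10 were called, both lower, where 1.17% of all genes were called (0.68% lower). By the same test no member differed in its MHY effect between 48 h and 24 h, and 0.34% of all genes did. None of the members had an unadjusted p under 0.05 in that comparison, where 6.58% of all genes did.

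**Figure D1:**
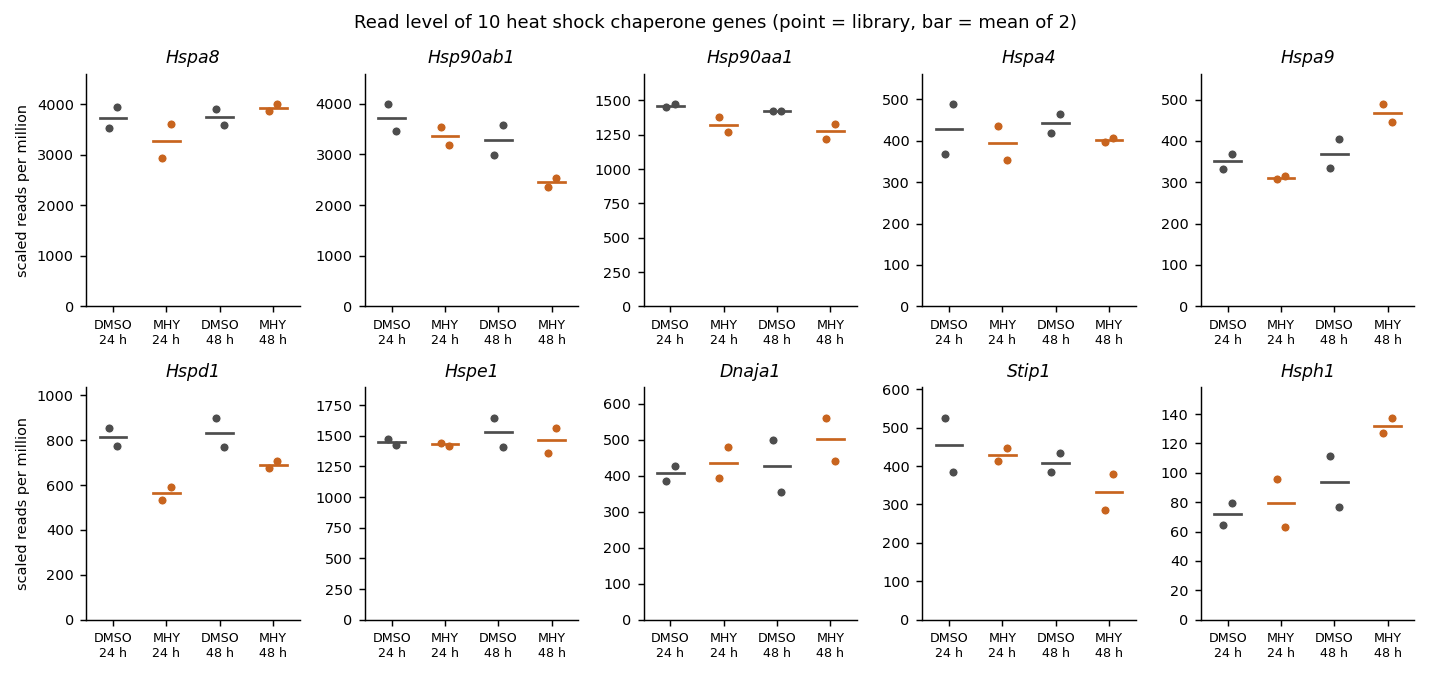
Level in scaled RPM (y axis, from 0) of the 10 chaperone genes in the 4 groups (x axis). Each point is a library and each bar the mean of 2 libraries. Hsp90ab1 was lowest in the MHY libraries at 48 h, at 2356 and 2538, and Hspd1 was lower in both MHY libraries than in both DMSO libraries at each time.

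Hsp90ab1 encodes the constitutive cytosolic HSP90. At 24 h it stood at 3989.6 and 3458 RPM under DMSO (libraries 21 and 23) and at 3535 and 3181 under MHY. The 48 h levels were 2987 and 3579.9 with DMSO (libraries 24 and 25) and 2356 and 2538 with MHY. The groups overlapped at 24 h, and at 48 h the MHY pair lay entirely below the DMSO pair. The log2 change was −0.13 (SE 0.11, adjusted p = 0.997, limma voom) at 24 h and −0.44 (SE 0.11, adjusted p = 0.0144) at 48 h, a level of 0.738 of DMSO. Over both times it was −0.28 (SE 0.081, adjusted p = 0.0407). Within sequencing runs the log2 change was −0.17, −0.12 and −0.14 in the 3 runs of 24 h and −0.31 and −0.50 in the 2 runs of 48 h. The call at 48 h was lost without DMSO library 25 (−0.29, adjusted p = 0.626) or without MHY library 24 (−0.37, adjusted p = 0.4525), while the direction stayed. It was also lost when barcodes had to reach a confidence of 0.9 (−0.44, adjusted p = 0.0712) or when the time points were fitted alone (−0.43, adjusted p = 0.0847). Over both times it was lost in 6 of 8 fits that left out a library, with an adjusted p of up to 0.5225 (without DMSO library 25). An exact permutation within times, which can give no p below 0.0556 in this design, gave p = 0.111 for the mean of both times. At 48 h 1 of the 6 embryonal carcinoma markers with enough reads, Tdgf1, an EGF-CFC coreceptor of Nodal, was also called lower (log2 −0.99, SE 0.21, adjusted p = 0.000795, limma voom), while the other 5 were not called, with Lin28a at −0.15, Pou5f1 at −0.18, L1td1 at 0.0063, Sox2 at 0.08 and Utf1 at 0.17. The mean sum of the neuronal list was 297 reads per 1000000 reads under DMSO and 226 under MHY, with no size factor. In the fit with size factors (limma voom) Stmn2 stood at −0.66 (adjusted p = 0.0928) and Tubb3 at 0.54 (adjusted p = 0.669) on the log2 scale. The part of these markers in the Hsp90ab1 value was not tested. In bulk RNA such as this, fewer cells with the mRNA and less of it per cell cannot be told apart.

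Hsp90aa1, its stress-inducible paralog, lay lower under MHY by less than the test could call. It stood at 1449 and 1471 RPM under DMSO and at 1381 and 1266 under MHY at 24 h. After 48 h the values were 1420.1 and 1424 with DMSO and 1218 and 1331 with MHY. The groups did not overlap at either time, yet the log2 changes were −0.14 (adjusted p = 0.997) and −0.17 (adjusted p = 0.669) by limma voom. Reads of Hsp90ab1 per read of Hsp90aa1 were 2.75 and 2.35 under DMSO against 2.56 and 2.51 under MHY at 24 h. At 48 h they were 2.10 and 2.51 against 1.93 and 1.91. The groups overlapped at 24 h, and at 48 h the MHY pair lay below.

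Hspd1 encodes HSP60, the chaperonin of the mitochondrial matrix. Its level at 24 h was 853 and 773 RPM under DMSO and 532 and 592 under MHY. Its level at 48 h was 899.6 and 768 under DMSO and 676 and 707 under MHY. At each time the MHY pair lay entirely below the DMSO pair. The log2 change was −0.53 (SE 0.17, adjusted p = 0.519, limma voom) at 24 h and −0.26 (SE 0.16, adjusted p = 0.516) at 48 h, and −0.39 (SE 0.11, adjusted p = 0.0487) over both. Within runs it was −0.34, −0.82 and −0.47 at 24 h and −0.31 and −0.24 at 48 h. The call over both times was lost in 7 of 8 fits that left out a library, with an adjusted p of up to 0.3497 (without MHY library 21), and the change kept its sign throughout. It was also lost with a barcode confidence of at least 0.9 (adjusted p = 0.175), a mapping quality of at least 10 (adjusted p = 0.0659) or scaling by total reads (adjusted p = 0.127).

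Hspe1 encodes the lid of the same chaperonin and was not called. It stood at 1472 and 1428 RPM under DMSO and at 1444 and 1417 under MHY at 24 h. Its 48 h values were 1647.5 and 1409.6 under DMSO and 1364 and 1561 under MHY. The groups overlapped at both times. The log2 changes were −0.02 (95% interval −0.30 to 0.26) and −0.06 (−0.33 to 0.20). These intervals overlapped those of Hspd1 at both times, which were −0.86 to −0.20 and −0.56 to 0.05.

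The ratio of the 2 chaperonin mRNAs within a library needs no scaling between libraries. It was examined after these values had been seen. Hspd1 reads per Hspe1 read were 0.579 and 0.542 under DMSO and 0.369 and 0.418 under MHY at 24 h. At 48 h they were 0.546 and 0.545 under DMSO and 0.495 and 0.453 under MHY. Every DMSO library lay above every MHY library. The log2 ratio differed by −0.51 at 24 h and −0.20 at 48 h, MHY minus DMSO, and is given without a test because the ratio was picked from these values.

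**Figure D2:**
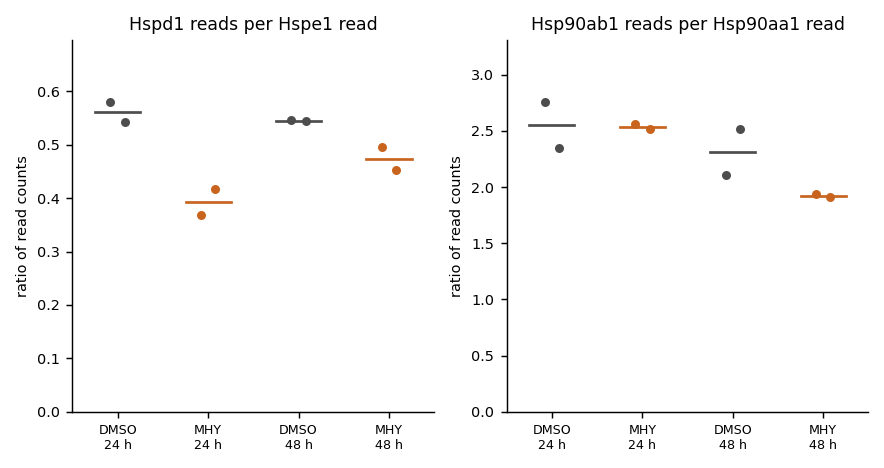
Ratio of read counts within a library (y axis, from 0) for Hspd1 over Hspe1 (left) and Hsp90ab1 over Hsp90aa1 (right) in the 4 groups. Points are libraries and bars the mean of 2. The Hspd1 to Hspe1 ratio was 0.542 to 0.579 in the 4 DMSO libraries and 0.369 to 0.495 in the 4 MHY libraries.

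The HSP70 genes and their partners were not called in MHY against DMSO. Hspa8, the constitutive cytosolic HSP70, stood at 3528 and 3942 RPM under DMSO and at 2945 and 3616 under MHY at 24 h. The later levels, at 48 h, were 3912 and 3587 under DMSO and 3872 and 4001 under MHY. The groups overlapped at both times, with log2 changes of −0.21 and 0.07. Hspa9, the mitochondrial HSP70, stood at 333 and 369 under DMSO and 307 and 315 under MHY at 24 h, and at 334 and 405 against 488 and 447 at 48 h. Its MHY libraries were thus below both DMSO libraries at 24 h and above both at 48 h, a turn seen in 2.77% of all genes, with log2 changes of −0.18 (adjusted p = 0.997) and 0.33 (adjusted p = 0.441). The difference between these 2 effects was not called (0.52, SE 0.27, adjusted p = 0.759).

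Hsph1 and Hspa4, the nucleotide exchange factors, also stayed below the threshold of the test. Hsph1 stood at 64.3 and 79.3 RPM under DMSO and 95.9 and 63.0 under MHY at 24 h. For 48 h its values were 111 and 76.8 against 127 and 137, with a log2 change of 0.54 (95% interval −0.03 to 1.11). Hspa4 had log2 changes of −0.12 and −0.14, Dnaja1 of 0.07 and 0.28, and Stip1 of −0.04 and −0.35, with adjusted p-values of 0.43 or more. At 24 h the MHY pair was entirely below the DMSO pair for 3 members, Hsp90aa1, Hspa9 and Hspd1, where 16.9% of all genes tested did so. At 48 h they lay below for 5 members (Hsp90aa1, Hsp90ab1, Hspa4, Hspd1 and Stip1), where 20.8% of all genes did, and above for Hspa9 and Hsph1, where 18.8% did. They lay below at both times for Hsp90aa1 and Hspd1, where 4.37% of all genes did. The members' median log2 change was −0.13 at 24 h and −0.10 at 48 h, beside 0.01 and −0.01 over all genes tested. Scaling by total reads moved the median of all genes at 48 h by 0.12, to 0.11, and turned Hspe1 to 0.06. Relative to the median of all genes, Hsp90ab1 then stood at −0.44 at 48 h, beside −0.43 with the size factors.

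Time itself was compared under each treatment, with run and time confounded. From 24 h to 48 h under DMSO no member was called and none had an unadjusted p under 0.05 (limma voom), where 0% of all genes tested were called and 4.25% had such a p. Under MHY Hsp90ab1 fell by 0.47 on the log2 scale (SE 0.12, adjusted p = 0.0111, limma voom), 1 of 10 members where 1.09% of all genes were called (0.948% lower). The call was lost without MHY library 21 (−0.39, adjusted p = 0.3535), without MHY library 23 (−0.53, adjusted p = 0.071) or without MHY library 24 (−0.40, adjusted p = 0.295). Hspa9 and Hspa8 were higher at 48 h under MHY by log2 0.59 (adjusted p = 0.124) and 0.28 (adjusted p = 0.262) and did not pass. The Hspa8 value was 0.12 without MHY library 21 and 0.42 without MHY library 23. Under MHY 5 of 10 members had an unadjusted p under 0.05 (Hsp90ab1, Hspa8, Hspa9, Hsph1 and Stip1), where 10.4% of all genes did.

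Poly(A) tails differed in length among the chaperone mRNAs, with an HSP90 mRNA at the long and the mRNA of the chaperonin lid at the short end of the order of means. Averaged over the medians of the 8 libraries, Hsp90ab1 stood at 111.5 ± 2.94 nt (SD, n = 8 libraries). Hspe1 stood at 87.6 ± 3.08 nt. Among the 1949 genes with at least 10 reads in each library, whose median was 100.3 nt, Hsp90ab1 ranked above 82.7% and Hspe1 above 10.0% of genes. In between lay Stip1 (104.5 ± 7.75 nt), Hspa9 (102.9 ± 8.65 nt), Hsp90aa1 (102.9 ± 4.39 nt), Hspa4 (99.7 ± 11.6 nt), Hsph1 (98.1 ± 18.6 nt), Dnaja1 (97.4 ± 6.62 nt), Hspd1 (97.0 ± 6.27 nt) and Hspa8 (94.4 ± 4.26 nt).

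Differences within libraries are given as mean ± SD over the 8 libraries and without a test, because the order comes from the same medians. The mean of Hsp90ab1 exceeded that of Stip1, next in order, by 7.04 ± 8.32 nt, less than the spread over libraries, with Hsp90ab1 longer in 7 of 8. Hsp90ab1 had longer tails than its paralog Hsp90aa1 in 8 of 8 libraries, by 8.67 ± 2.93 nt, and than Hspe1 in 8 of 8, by 23.9 ± 4.38 nt. The chaperonin gene Hspd1 exceeded its partner Hspe1 by 9.32 ± 7.40 nt, in 7 of 8 libraries. Hspa8, next to Hspe1 in order, exceeded it by 6.75 ± 6.19 nt, in 7 of 8. The neighbours from Stip1 down to Hspa8 in the order differed by 0.057 to 3.13 nt, less than the spread of the differences over libraries.

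**Figure D3:**
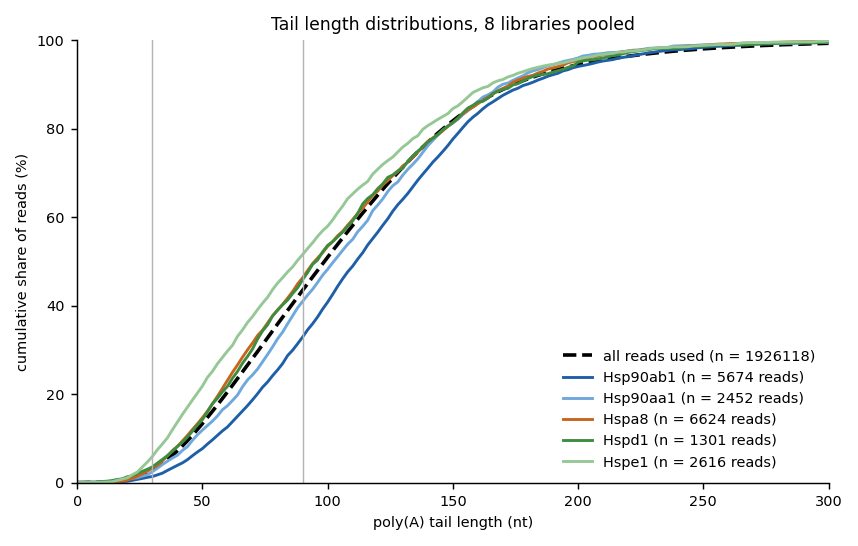
Cumulative share of reads (y axis, %) against poly(A) tail length in nt (x axis) for 5 chaperone genes, with all reads used as a dashed line and 8 libraries pooled. Grey lines mark 30 and 90 nt. The Hsp90ab1 curve lies farthest to the right (median 111.1 nt) and the Hspe1 curve farthest to the left (median 87.6 nt).

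The difference between Hsp90ab1 and Hspe1 ran through the whole distribution of their reads. Over all libraries pooled, the middle of the Hsp90ab1 tails (25th to 75th percentile) ran from 79.3 to 146.1 nt and that of Hspe1 from 53.6 to 128.4 nt. Tails longer than 90 nt made up 67.1% of Hsp90ab1 reads and 48.4% of Hspe1 reads. Tails of 30 to 90 nt made up 31.5% and 45.7%, and tails under 30 nt 1.36% and 5.85%. Pooled over the libraries, Dnaja1 had 6.63% of tails under 30 nt, but the order of the members changed between groups. Hspe1 lay above Dnaja1 in the MHY group at 24 h (mean 5.38% against 3.10%), and Stip1 below Hsp90ab1 in the MHY group at 48 h (1.76% against 2.26%). Hspa8, with the most reads, had 3.28% of tails under 30 nt and 43.0% of 30 to 90 nt.

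MHY left no call in the median tail of any member. No member was called by limma at 24 h, at 48 h or over both times, and 0% of the 1949 genes tested were called. An unadjusted p under 0.05 was found for 1 member at 24 h (Hspa4), for 0 at 48 h and for 2 over both times (Hspa4 and Hspa8), where 3.85%, 7.54% and 6.93% of all genes had one. The members' median change was 4.12 nt at 24 h and 5.999 nt at 48 h, beside −0.71 nt and −3.02 nt over all genes tested. At 48 h the MHY pair was entirely above the DMSO pair for 6 of 10 members (Dnaja1, Hsp90aa1, Hsp90ab1, Hspa4, Hspa8 and Hspd1), where 12% of all genes tested did so, and below for none, where 21.8% did. At 24 h they lay above for 3 members (Hspa4, Hspa9 and Hspd1; 14.3% of all genes) and below for 3 (Hsp90aa1, Hsp90ab1 and Hspe1; 17.9%).

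**Figure D4:**
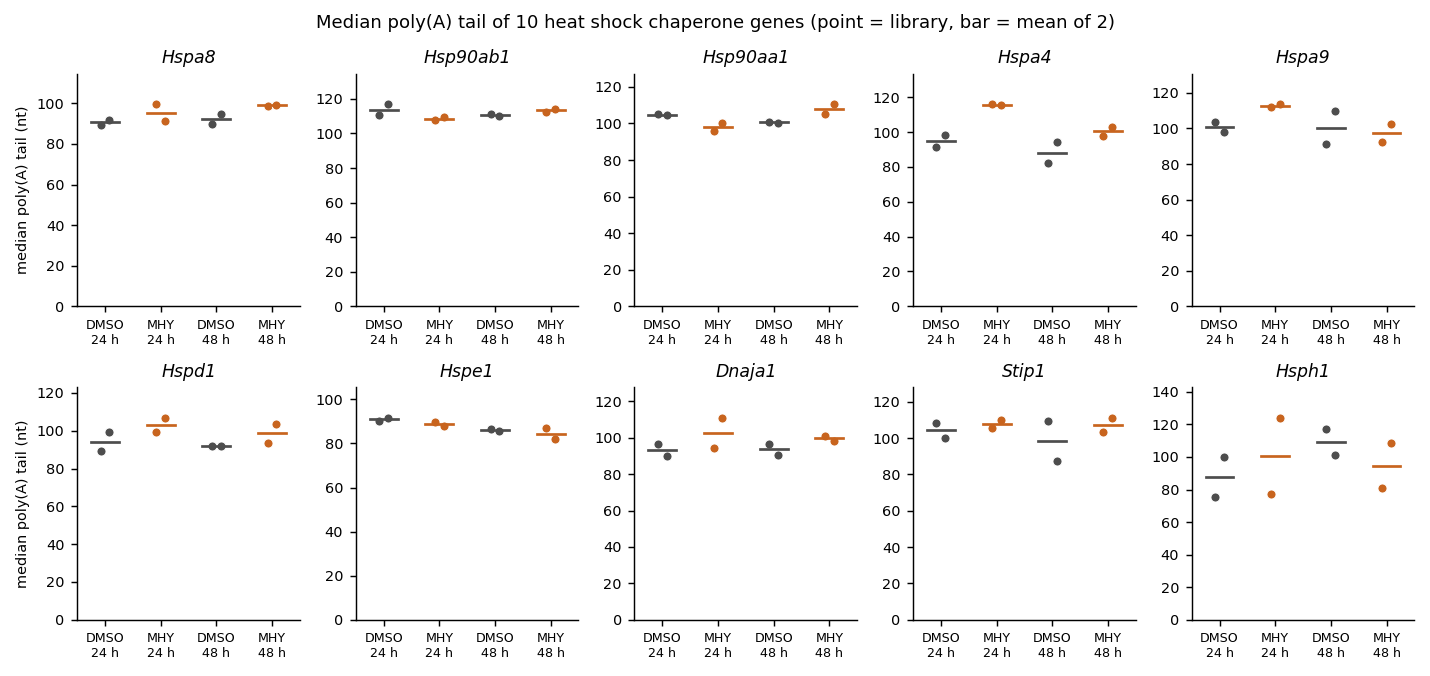
Median poly(A) tail in nt (y axis, from 0) of the 10 chaperone genes in the 4 groups (x axis). Each point is a library and each bar the mean of 2 libraries. Hspa4 tails were 91.2 and 98.1 nt under DMSO and 115.9 and 115.6 nt under MHY at 24 h, and Hspe1 stayed between 81.9 and 91.7 nt in all 8 libraries.

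Hspa4, an HSP110 family gene, had the largest change among the members at 24 h and over both times, and Stip1 (11.2 nt) and Hsph1 (−17.1 nt) had larger ones at 48 h. Its median tail was 91.2 and 98.1 nt under DMSO and 115.9 and 115.6 nt under MHY at 24 h. The medians at 48 h were 82.2 and 94.0 nt for DMSO and 97.8 and 103.0 nt for MHY. The MHY pair was entirely above the DMSO pair at each time, which held for Hspa4 and Hspd1 among the members and for 2.15% of all genes. The change was 20.1 nt (SE 7.77, adjusted p = 0.996, limma) at 24 h, 10.4 nt (SE 6.84, adjusted p = 0.789) at 48 h and 15.2 nt (SE 5.18, adjusted p = 0.507) over both. Within runs the MHY median was longer by 19.1, 22.7 and 26.6 nt in the 3 runs of 24 h and by 7.50 and 10.6 nt in the 2 of 48 h. These medians rest on 56 to 133 reads per library.

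Hspd1 tails were 89.0 and 99.3 nt under DMSO and 99.4 and 106.9 nt under MHY at 24 h. For 48 h they were 92.0 and 92.0 nt against 93.6 and 103.5 nt. Its changes were 7.92 nt (adjusted p = 0.996, limma) and 5.62 nt (adjusted p = 0.872). The mRNA that lay lower in reads under MHY thus had median tails that were not shorter in either MHY group. Hspa8 tails were 89.6 and 91.8 nt under DMSO against 99.5 and 91.5 nt under MHY at 24 h, which overlapped. At 48 h they were 89.98 and 94.6 nt against 98.9 and 99.2 nt, which did not (change 6.38 nt, 95% interval −0.56 to 13.3).

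For both HSP90 mRNAs the median tails of the MHY libraries lay below those of DMSO at 24 h and above them at 48 h. Hsp90ab1 tails were 110.4 and 116.8 nt under DMSO and 107.6 and 109.2 nt under MHY at 24 h. For 48 h they were 111.4 and 109.9 nt against 112.6 and 114.2 nt. Hsp90aa1 tails were 104.9 and 104.8 nt against 96.1 and 100.3 nt at 24 h. For 48 h they were 101.0 and 100.1 nt against 105.2 and 110.4 nt. Such a turn, below and then above without overlap, occurred in 2.1% of all genes, and neither gene was called in the test of the difference between times (limma, adjusted p = 0.999 and 0.979). Hspe1 showed changes of −1.97 nt and −1.18 nt, with 95% intervals of −11.8 to 7.88 nt and −9.80 to 7.44 nt. For Hsph1 the interval at 48 h ran from −44.6 to 10.3 nt, too wide to bound a change.

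Tails were also counted in classes, as the share of a gene's reads with tails under 30 nt and the share with tails of 30 to 90 nt. Deadenylases shorten tails as an mRNA ages. Neither share was called for any member in any comparison by limma. For tails under 30 nt 0.0513% of all genes tested were called at 24 h and 0.308% at 48 h, and for tails of 30 to 90 nt 0% at each time. An unadjusted p under 0.05 for tails under 30 nt was found for 2 members at 24 h (Hspa8 and Hspa4) and 0 at 48 h, where 4.77% and 11% of all genes had one. For tails of 30 to 90 nt it was found for 0 members at 24 h and 0 at 48 h, where 4.87% and 6.16% of all genes had one, and for 1, Hspa4, over both times, where 6.31% did.

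Hspe1 had 4.76% and 5.28% of tails under 30 nt under DMSO and 3.65% and 7.11% under MHY at 24 h. At 48 h it had 4.91% and 4.21% under DMSO and 9.53% and 6.604% under MHY, so that both MHY values were higher, and the log2 odds differed by 0.90 (SE 0.56, adjusted p = 0.595). The 95% Wilson intervals, which cover counting error only, were 3.04% to 7.82% and 2.64% to 6.63% in the DMSO libraries and 7.11% to 12.7% and 4.36% to 9.88% in the MHY libraries at 48 h, so that all overlapped between treatments except those of MHY library 24 and DMSO library 25. Hspa8 had 2.65% and 4.43% under DMSO and 1.79% and 1.57% under MHY at 24 h, and 4.39% and 3.02% against 3.69% and 3.31% at 48 h. At 48 h the MHY pair was entirely above the DMSO pair for 6 of 10 members, where 26.1% of all genes did so. At 24 h they lay below for 4 (Dnaja1, Hspa4, Hspa8 and Hspa9), where 14.2% did. MHY library 24 had the largest share of tails under 30 nt over all its reads, 4.46%. Without it no member was called at 48 h either (limma), and the log2 odds of Hspe1 differed by 0.57 (adjusted p = 0.915).

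In tails of 30 to 90 nt, the MHY pair was entirely below the DMSO pair for 6 of 10 members at 48 h, where 15.2% of all genes did so. They were the 6 members whose median tails lay above DMSO there. Both measures come from the same reads, so this is not a separate result. The MHY pair was above for Hsph1 at 48 h, where 17.6% of all genes did so. At 24 h it was above for 3 members (Hsp90aa1, Hsp90ab1 and Hspe1; 17.9% of all genes) and below for 2 (Hspa4 and Hspd1; 14.1%). For Hspa8 the shares were 45.6% and 43.1% under DMSO and 39.6% and 38.8% under MHY at 48 h (log2 odds −0.29, adjusted p = 0.858, limma). For Hspa4 they were 44.4% and 39.0% under DMSO and 28.6% and 33.9% under MHY at 24 h, and 53.0% and 42.1% against 39.2% and 39.8% at 48 h.

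Several members ended at more than 1 place. The position where the alignment stops before the tail was read along the transcript with most reads, and ends within 30 nt of a peak holding at least 5% of the reads were counted as 1 site. Hspa8, Hsp90ab1, Hsp90aa1, Stip1 and Hsph1 had a single site with 92.7% to 99.2% of reads. For Hsp90aa1 this site lay 423 nt before the annotated end, at position 110691028 of chromosome 12, which is also where its second annotated transcript ends. Hspa4, Hspa9, Hspd1, Hspe1 and Dnaja1 had 2 sites each, all in the 3′ untranslated part of the transcript. The last 30 bases before the sites of Hspa4, Hspd1 and Hspe1, and before the first site of Dnaja1, are shown in the sense of the mRNA because they hold the cleavage signal. Capitals mark AATAAA or ATTAAA, searched in the 40 bases before the end (GENCODE vM21 transcripts, mm10).
Hspe1, first end, chr1:55091208-55091237: tttatAATAAAcagatgatgcctaaactga
Hspe1, last end, chr1:55091278-55091307: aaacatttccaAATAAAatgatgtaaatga
Hspd1, first end, chr1:55078048-55078077: ttttgAATAAAgacatttgtacattcctga
Hspd1, last end, chr1:55077835-55077864: cctttgtgtAATAAAattttgtttaaagtt
Hspa4, first end, chr11:53261574-53261603: cttgtttatATTAAAacagactattataaa
Hspa4, last end, chr11:53259814-53259843: actAATAAAagaaacctgtcttaacttgaa
Dnaja1, first end, chr4:40733077-40733106: aatgaagAATAAAcacaaatataaaagctc

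Each of these 7 ends had a signal beginning 19 to 27 nt before it. Hspe1 was split most evenly, with 1386 reads at an end 70 nt before the annotated one and 1210 reads at the annotated end. Hspd1 ended at its annotated end in 81.7% of reads and 213 nt before it in 17.4%. Hspa4 ended 41 nt after the stop codon in 78.7% of reads, 1760 nt before its annotated end, which was used in 17.8%. Dnaja1 ended 163 nt after the stop codon in 82.5% of reads and 957 nt after it in 11.6%, with neither signal in the 40 bases before the second of these. Hspa9 used an end 219 nt before the annotated one in 82.5% of reads and 1 still earlier in 10.9%.

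**Figure D5:**
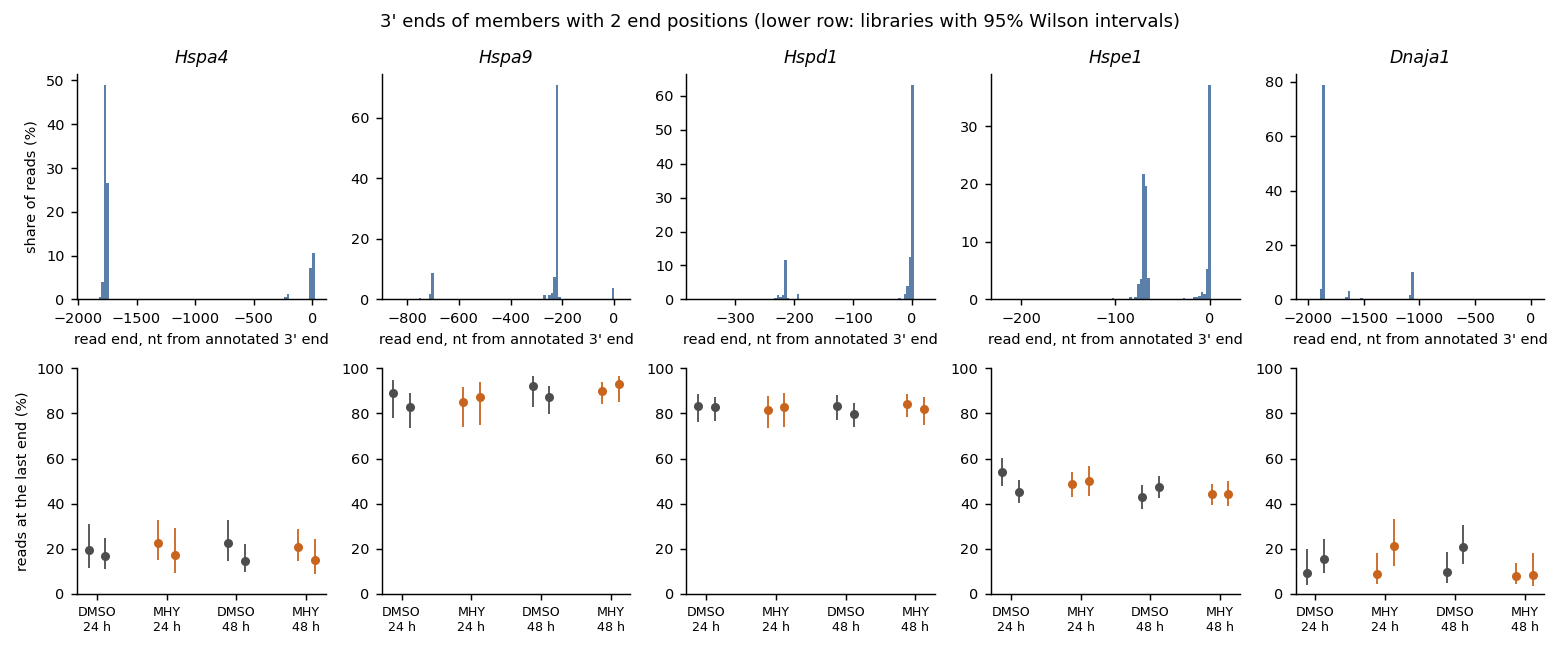
Upper row, share of reads (y axis, %) by distance of the read's end from the annotated 3′ end in nt (x axis), for the 5 members with 2 end sites, all libraries pooled. Lower row, share at the last site among reads at either site (y axis, %) in each library, with 95% Wilson intervals; Hspe1 lies between 42.9% and 54.2% and Hspd1 between 79.9% and 84.1%.

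End use was compared between treatments by an exact permutation within times, which cannot give a p below 0.0556 here. Of the Hspe1 reads at either site, the share at the last one was 54.2% and 45.2% under DMSO and 48.5% and 50% under MHY at 24 h, and 42.9% and 47.2% against 44.1% and 44.3% at 48 h. For Hspa4 it was 19.4% and 16.8% against 22.6% and 16.98% at 24 h, and 22.5% and 14.7% against 21.0% and 15.0% at 48 h. For Dnaja1 it was 9.26% and 15.3% against 8.96% and 21.1% at 24 h, which overlapped. At 48 h Dnaja1 had 9.72% and 20.7% under DMSO and 7.69% and 8.33% under MHY, so that the MHY pair lay lower, on 5 to 17 reads at the last site in a library. In none of the 5 genes did it give a p below 0.556 for MHY against DMSO (adjusted p = 0.944 in each). End sites were examined after the members' tails had been seen.

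Median tails lay higher on the long form of Hspa4 than on its short form in 7 of 8 libraries. The median was 111.3 nt at the last site and 93.6 nt at the first, a difference of 17.7 ± 14.1 nt (exact two-sided sign-flip test over 8 libraries, p = 0.0156, adjusted over 5 genes p = 0.0781). Reads at the last site numbered 9 to 26 in a library. At the first site, with 44 to 110 reads, Hspa4 tails were 88.1 and 89.8 nt under DMSO and 117.2 and 103.8 nt under MHY at 24 h, and 77.6 and 92.5 nt against 91.96 and 87.7 nt at 48 h. Within the short form the groups thus did not overlap at 24 h and overlapped at 48 h. Hspe1 tails were 90.4 nt at the first and 84.9 nt at the last site, a difference of −5.48 ± 8.21 nt (exact p = 0.109, adjusted p = 0.273), and both sites lay below the median of all genes. The other 3 genes differed by −3.43, 0.017 and 8.42 nt, less than the spread over libraries.

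Other cytosolic and mitochondrial chaperones were taken from lists of 68 further genes, of which 44 had enough reads to be tested. In MHY against DMSO 0 of the 44 were called at 24 h, at 48 h or over both times (limma voom). Their median log2 change was −0.14 at 24 h and 0.03 at 48 h. The most read was Fkbp4, an immunophilin that binds HSP90, with log2 changes of −0.32 and −0.08. Ahsa1, which activates the HSP90 ATPase, had −0.29 and −0.05, and Cdc37, which brings kinases to HSP90, had 0.05 and −0.12. Ptges3 (p23), which stabilizes the closed HSP90 dimer, had −0.16 and −0.53 (adjusted p = 0.255 at 48 h) and the longest mean tail of the 26 of these genes with enough reads for the tail test, 128.0 nt. Ruvbl2 had 0.00 and −0.29, and Ppid −0.52 and −0.08. Grpel1, the nucleotide exchange factor of HSPA9, had −0.01 and 0.17, and St13 had −0.02 and 0.03. Dnaja2 had −0.13 and 0.17 and Dnajc8 had 0.10 and −0.01.

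The 8 subunits of the cytosolic chaperonin CCT had a median log2 change of −0.25 at 24 h and −0.13 at 48 h, with 0 called. Their median tail was 98.4 nt, beside 98.9 nt for the 10 members and 102.4 nt for the 26 other chaperones tested. The most read subunits were Cct5, with log2 changes of −0.29 and −0.03, and Cct4, with −0.08 and −0.04. Among 17 chaperones of the endoplasmic reticulum 15 were tested for reads, with medians of −0.27 and −0.26, and 1, Pdia6, was called over both times (−0.61, adjusted p = 0.0131, limma voom). Of the 17, 11 had at least 10 reads in each library. The tails of these 11 ran from 74.98 nt (Ppib) to 136.5 nt (Canx), a wider range than that of the members. Whether any of these lists differed from the members was not tested.

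Among 422 other genes with at least 50 reads in each library, those whose read level followed the members' mean pattern most closely were Atp5k (Pearson r = 0.892 over 8 libraries), Hmgn2 (0.876), Sub1 (0.861), Ndufa4 (0.818) and Atp5c1 (0.818). The pattern was the mean of the standardized log2 levels of the 9 members that passed the same minimum of reads. These correlations share the libraries and their scaling and are given as a description.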

How the data were processed

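Poly(A) RNA of 8 P19 libraries was sequenced directly. The members and gene lists were chosen with earlier results of these data known. Per the study's methods, Guppy called the bases, minimap2 (2.20 in the submitters' processing notes) placed reads on GENCODE vM17 transcripts of mm10, Nanopolish gave the tail lengths, and Deeplexicon read the barcodes. The deposited table holds 1 alignment per line, with tail lengths in nt, a mapping quality score and a barcode confidence fraction from the authors. The table holds 2439710 alignments of 2364352 reads.

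Alignments tagged PASS (83.1%) of class mRNA were used, without mitochondrial transcripts and pseudogenes, 1 line per read and transcript. Reads were summed per gene. Counts were made by counting lines, scaled by the median of ratios and fitted with limma 3.58.1 (R 4.3.3) voom for genes with at least 10 reads in 2 libraries. Median tails, and log2 odds of tails under 30 nt and of 30 to 90 nt (0.5 read added to each side), were fitted with limma weighted by reads, with a trended prior, for genes with at least 10 reads in each library. One fit held all 8 libraries. P-values were adjusted by Benjamini-Hochberg over all genes of a comparison, at a threshold of 0.05. The fits were tested on simulated data. With 2 libraries against 2, an exact permutation cannot give a two-sided p below 0.333. The precision of a share follows from the reads of that gene and library. Wilson intervals of shares cover counting error only, and intervals of changes come from the limma fit between libraries.

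Named were all 10 members, called genes of the other lists (otherwise the 10 with most reads), at most 2 each of the CCT and endoplasmic reticulum lists, and the 5 genes most like the members in pattern. Pdia6, Tdgf1 and the genes with the longest or shortest tails of a list were named after their values were seen. Replicates of a group differed by more than sampling noise (chi-square per degree of freedom 1.12 to 1.41). Transcript and end positions are from GENCODE vM21 (mm10), whose versioned identifiers matched those of all members.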

Additional observations from a re-analysis of the deposited data

Results flagged for a closer look

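For 8 values of the members, both MHY libraries lay on one side of both DMSO libraries at 24 h and on the opposite side at 48 h. Whether the MHY effect changed from 24 h to 48 h was tested in each with limma over all genes, and none was called. In read level Hspa9 had a difference of 0.516 on the log2 scale (adjusted p = 0.759). In median tail Hsp90aa1 had a difference of 13.94 nt (adjusted p = 0.979) and Hsp90ab1 of 8.529 nt (adjusted p = 0.999). In the log2 odds of tails under 30 nt the differences were 1.866 for Dnaja1 (adjusted p = 0.745), 2.679 for Hspa4 (adjusted p = 0.5375) and 2.749 for Hspa9 (adjusted p = 0.563), a turn from below to above that 4.41% of all genes showed. In the log2 odds of tails of 30 to 90 nt they were −0.371 for Hsp90aa1 and −0.386 for Hsp90ab1 (adjusted p = 0.994 in both), a turn from above to below that 2.67% of all genes showed. Both treatments were sequenced in the same runs within a time, and those of 24 h and 48 h in different runs.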

How the results depend on the processing

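No member was called in median tail, in tails under 30 nt or in tails of 30 to 90 nt under any alternative run. In read level, 1 member (Hsp90ab1) was called at 48 h (65 of 4116 genes tested). A barcode confidence of at least 0.9 gave 0 members (39 of 3692 genes). So did log2(RPM + 1) with a trended prior (28 of 4116) and time points fitted alone (30 of 3780). Leaving out each library gave 0 to 1. Over both times 2 members were called (48 of 4116 genes tested). With a barcode confidence of at least 0.9 it was 0 members (41 of 3692 genes). It was also 0 with a mapping quality of at least 10 (34 of 3029). The log2 fit (31 of 4116) and scaling by total reads (61 of 4116) gave 0 members as well. Leaving out each library gave 0 to 2. For 48 h against 24 h under MHY 1 member was called (45 of 4116 genes tested). It was 0 with a barcode confidence of at least 0.9 (21 of 3692). Without a filter on low counts 2 members were called, Hsp90ab1 and Hspa8 (110 of 13120 genes). Scaling by total reads gave 2 members, Hspa8 and Hspa9 (35 of 4116). Leaving out each library gave 0 to 1. Over all genes tested 65 were called at 48 h, against 28 in the log2 fit, 147 without a filter on low counts and 16 to 140 when a library was left out. In median tail 0 genes were called at 48 h, against 17 without a trended prior and 18 with the replicate block, none of them a member. The cause was not tested. Over all alternatives the log2 change of Hsp90ab1 at 48 h ran from −0.55 to −0.29 and that of Hspd1 over both times from −0.45 to −0.33.

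Whether library numbers shared by the treatments pair the libraries was not given by the labels. The correlation of the deviations of such libraries was 0.066 at 24 h and 0.058 at 48 h in read level. In median tail it was 0.020 and 0.041. With 2 libraries in a group these values cannot settle whether the libraries were paired. With the replicate block 1 member was called at 48 h and 2 over both times in MHY against DMSO, as without it. In each tail measure 0 were called with it. No library number occurs at both times, so the block cannot check the change from 24 h to 48 h under MHY. Hsp90ab1 was the 1 member called there with the block, but its log2 change was −0.63, against −0.47 without it. These 2 values are not the same quantity, and no conclusion is drawn from that call. Hsph1 and the ends of Hspa4 and Hspa9 rest on few reads, and a change of a few nt in their tails was not detectable at this depth.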
